A study of Sus scrofa with 6 samples.

Results

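Proteasome subunit genes were followed in RNA-seq counts of pig (Sus scrofa) oocytes. Members were all genes whose pig Ensembl symbol began with PSMA, PSMB, PSMC, PSMD or PSME followed by a number. Of the 25880 genes listed in the count files, 39 met this rule: 7 of the alpha ring (PSMA), 9 of the beta ring (PSMB), 6 ATPases (PSMC), 13 non-ATPase genes (PSMD) and 4 activators (PSME). PSMA6 and PSMD2 carry identifiers that are not in the files used here, and PSMB5 and PSMB6 had no identifier in the name table, so these 4 genes were not analysed here. The study asked how malathion, an organophosphate insecticide, acts on the mRNA that oocytes store. Its 6 libraries came from metaphase II (MII) oocytes, 3 without and 3 with 1 mM malathion in the maturation medium, diluted from a 0.75 M stock in DMSO. The oocytes were collected as cumulus-oocyte complexes from slaughterhouse ovaries and matured in vitro, and the labels do not say whether control medium received DMSO. They also give neither the number of oocytes per library nor the cultures behind the replicates. A p-value therefore sets the difference between groups only against the spread between these libraries, which may be technical.

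The proteasome is the large protease that destroys proteins tagged with ubiquitin. Its core particle is a barrel of stacked rings, in which outer alpha subunits control entry and some inner beta subunits cut peptide bonds. A regulatory particle caps the barrel. Its ATPases unfold the substrate and thread it into the core, and its non-ATPase subunits bind ubiquitin, remove it and hold the cap together. Activators of the PSME genes can dock on the barrel in place of that cap. In oocytes the proteasome destroys cyclin B and securin when chromosomes separate, so it is needed to pass from the first to the second meiotic division. Transcription is nearly silent in the fully grown oocyte, and its subunit transcripts are mostly ones stored during growth.

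Library totals, summed over gene rows, ranged from 25816040 to 42312341 counts, and levels are given as CPM, counts scaled to that total. CPM grow with transcript length and no coding length was used here, so CPM do not rank the transcript levels of different genes. Shares and ratios of counts between genes below are read from library to library. Control replicate 2 and both replicate 3 libraries stood apart from control replicate 1 and malathion replicates 1 and 2. In control replicate 3 and malathion replicate 3, 8344 and 8492 genes had a count, against 12211 to 14707 elsewhere. The 13 matched oocyte markers of a list of 15 had none at 0 over the libraries. Their sum was 69178, 26771 and 3974 CPM in the control libraries (replicates 1, 2 and 3, the order used throughout) and 74901, 53785 and 4392 CPM in the malathion libraries. Of 18 cumulus and granulosa markers 15 were matched, and AMH, AREG and AMHR2 were at 0. They summed to 654, 425 and 37.0 CPM in control and 696, 728 and 66.2 CPM in malathion libraries. Theca, stroma and endothelium markers (8 of 9 matched, CYP17A1 and CDH5 at 0) summed to 0.848 to 21.1 CPM, and blood and immune markers (8 of 9 matched, TYROBP at 0) to 0.165 to 9.08 CPM, highest in control replicate 2. The part of these differences in the values below was not tested. In bulk libraries, fewer cells of a type and less RNA per cell cannot be told apart.

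Summed over the 39 genes, subunit transcripts stood at 3058, 3934 and 1037 CPM in the control libraries and at 3128, 3478 and 1032 CPM in the malathion libraries. As a share of gene counts this was 0.306%, 0.393% and 0.104% in control and 0.313%, 0.348% and 0.103% in malathion libraries, with a Wilson 95% interval of at most ± 0.00236 percentage points that covers counting error only. Both replicate 3 libraries lay far below the other 4, and the groups overlapped. The mean was 2676 ± 1486 CPM in control and 2546 ± 1323 CPM in malathion libraries (SD, n = 3 each). The difference of mean log2 values was −0.05 (exact two-sided permutation test p = 0.9, adjusted p = 1 over 6 sums, smallest possible p 0.1), and its sign turned when control replicate 1, control replicate 2 or malathion replicate 3 was left out.

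**Figure D1:**
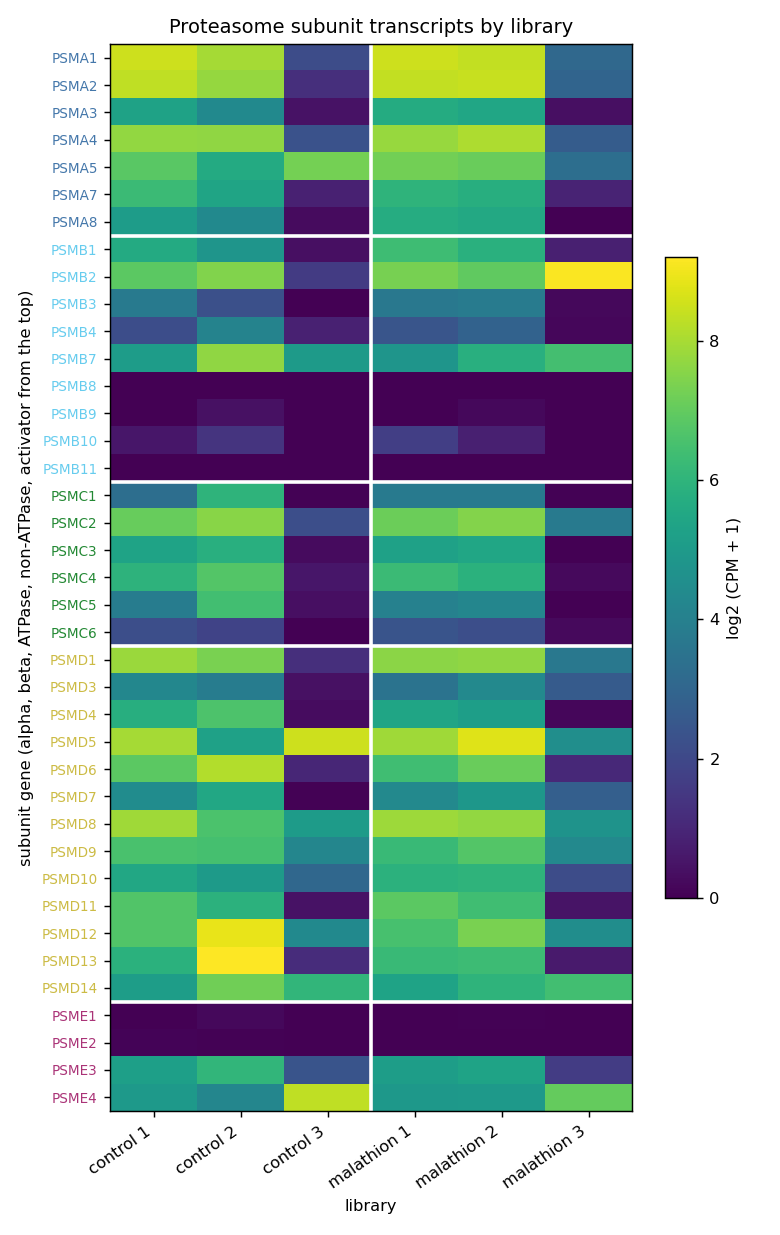
Level of each of the 39 subunit genes (rows, ordered by class) in each of the 6 libraries (columns), as log2 (CPM + 1). Most rows are dark in both replicate 3 libraries. Among the brighter ones are PSMD5, PSMA5 and PSME4 in control replicate 3, and PSMB2, PSME4, PSMB7 and PSMD14 in malathion replicate 3.

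The make-up of this pool differed more than its size. In control replicate 1 and malathion replicates 1 and 2, the alpha ring held 37.8%, 39.1% and 35.3% of subunit counts, the beta ring 7.11%, 9.14% and 7.34%, the ATPases 8.47%, 9.15% and 8.99%, the non-ATPase genes 44.4%, 40.6% and 46.4% and the activators 2.16%, 2.03% and 2.01%. In control replicate 2 the alpha ring held 20.2%, the ATPases 12.7% and the non-ATPase genes 54.1%. In control replicate 3 the activators held 30.9% and the ATPases 0.445%, and in malathion replicate 3 the beta ring held 63.3% and the alpha ring 2.91%. Few genes carried the replicate 3 pools. The 5 genes with the most counts held 90.1% of subunit counts in control replicate 3 and 86.6% in malathion replicate 3, against 44.1% to 46.0% elsewhere. PSMD5 and PSME4 alone took 35.2% and 30.5% in control replicate 3, and PSMB2 took 54.8% in malathion replicate 3 against 0.1997% in control replicate 3 and 3.56% to 5.13% elsewhere.

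**Figure D2:**
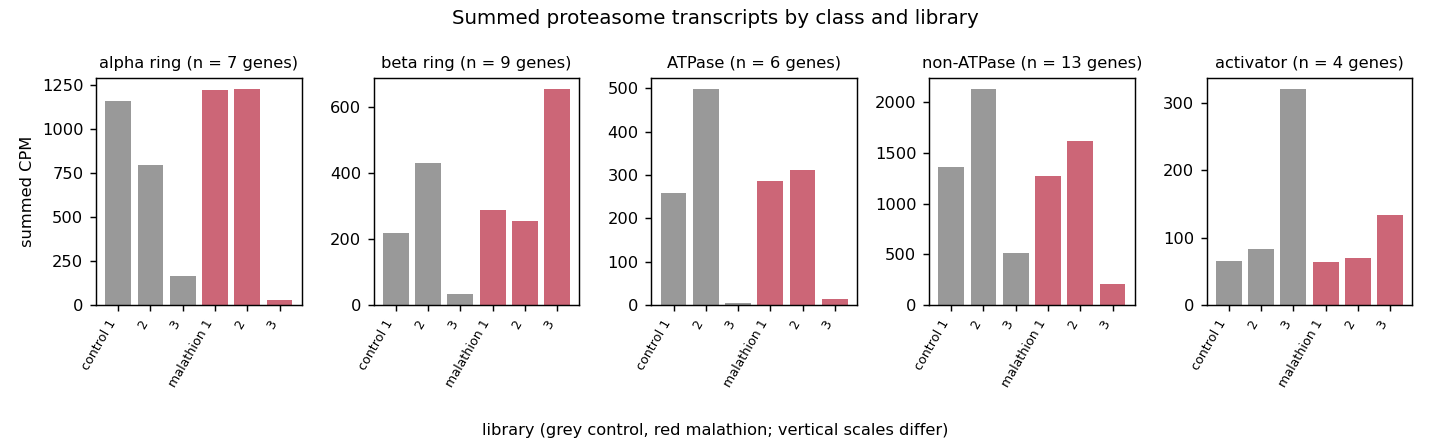
Summed CPM of the genes of each class (panels) in each library (bars, grey for control and red for malathion, each axis from 0 with its own scale). The beta ring bar of malathion replicate 3 stands at 653 CPM and the activator bar of control replicate 3 at 320 CPM, each the highest of its panel.

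Most alpha ring genes stood at similar levels in control replicate 1 and malathion replicates 1 and 2. PSMA8 differed more, with malathion replicate 1 at 1.53-fold control replicate 1. Nearly all alpha ring genes were low in both replicate 3 libraries, as were most genes tested. PSMA1 (ENSSSCG00000013391), an alpha ring subunit, stood at 362, 249 and 3.43 CPM in control and 364, 330 and 7.59 CPM in malathion libraries. PSMA2 (ENSSSCG00000039582), its partner in the ring, stood at 322, 215 and 1.36 CPM in control and 325, 347 and 6.85 CPM in malathion libraries. For both genes the replicate 3 libraries were the low ones in either group, and the groups overlapped. PSMA3, PSMA4 and PSMA7 followed this shape, at 19.7 to 270 CPM in the replicate 1 and 2 libraries and at 0.307 to 5.39 CPM in the replicate 3 libraries. PSMA5 (ENSSSCG00000006830) departed from it, at 114, 48.1 and 156 CPM in control and 150, 138 and 8.93 CPM in malathion libraries. It was thus high in control replicate 3, where 6 of the 7 alpha genes and 86.5% of all genes tested lay below 10 CPM.

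PSMA8 (ENSSSCG00000003717) encodes an alpha subunit known from the testis, where it replaces the PSMA7 product in spermatocytes. It had 924, 535 and 6 counts in control and 1310, 1270 and 1 counts in malathion libraries, or 33.3, 19.7 and 0.204 CPM and 50.7, 45.7 and 0.0236 CPM. Malathion replicates 1 and 2 were above each control library and malathion replicate 3 was below each, so the groups overlapped. Counts of PSMA8 per count of PSMA7 were 0.439, 0.487 and 0.250 in control and 0.803, 0.855 and 0.0263 in malathion libraries. The replicate 3 ratios rest on 6 counts and 1 count of PSMA8. The 2 genes are close paralogs, so reads that fit both may have been dropped or misplaced, which makes the ratio uncertain.

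Among beta ring genes, those of the standard core that were analysed had counts in all replicate 1 and 2 libraries. PSMB5 and PSMB6, also of that core, were not analysed. Genes of its immune and thymus variants were at 0 or low, with PSMB10 the highest at up to 2.25 CPM. That is not far below the lowest replicate 1 and 2 values of PSMB4 (3.53 CPM) and PSMB3 (3.80 CPM). PSMB7 (ENSSSCG00000005590), the subunit with trypsin-like activity, stood at 33.2, 206 and 31.1 CPM in control and 26.7, 54.6 and 85.8 CPM in malathion libraries. It was highest in control replicate 2, and in contrast to most members it was not low in either replicate 3 library. PSMB2 (ENSSSCG00000035914), a non-catalytic beta subunit, stood at 119, 175 and 2.07 CPM in control and 160, 124 and 566 CPM in malathion libraries. The replicate 3 libraries held both its lowest and its highest value. PSMB4 (ENSSSCG00000034984), also non-catalytic, stood at 3.53, 16.2 and 0.814 CPM in control and 4.38, 6.37 and 0.118 CPM in malathion libraries, highest in control replicate 2. PSMB1 and PSMB3 were present in the replicate 1 and 2 libraries, at 3.80 to 80.4 CPM, and at no more than 0.756 CPM in the replicate 3 libraries.

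The immune and thymus genes replace the catalytic beta subunits in cells that prepare antigens. PSMB8 (ENSSSCG00000026951) and PSMB11 (ENSSSCG00000002038), the thymus form, had 0 counts in each library, which allows up to 0.0709 to 0.116 CPM per library (3 counts). PSMB9 (ENSSSCG00000001463) had 9 counts in control replicate 2, 4 in malathion replicate 2 and 0 elsewhere. PSMB10 (ENSSSCG00000031781), the replacement for PSMB7, had 13, 43 and 0 counts in control and 58, 21 and 0 in malathion libraries. Together these 4 genes summed to at most 2.25 CPM in a library. A 0 in these files does not show that a transcript is absent, since ADRM1 and RPS27A, which cells in general use, were at 0 counts in all 6 libraries too.

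All 6 ATPases lay below 10 CPM in control replicate 3, as did 86.5% of all genes tested. In malathion replicate 3, 5 of the 6 did, all but PSMC2, against 86.9% of all genes tested. Control replicate 2 was highest for 5 of the 6 ATPases, as it was for 54.7% of all genes tested. PSMC2 (ENSSSCG00000015424) stood at 133, 187 and 3.60 CPM in control and 140, 177 and 13.0 CPM in malathion libraries. PSMC4 (ENSSSCG00000039235) stood at 60.5, 107 and 0.475 CPM in control and 75.5, 57.7 and 0.165 CPM in malathion libraries. PSMC5 (ENSSSCG00000017287) stood at 13.7, 84.2 and 0.305 CPM in control and 15.7, 17.8 and 0.0236 CPM in malathion libraries. For PSMC5 control replicate 2 was 6.16-fold above control replicate 1, and for PSMC1 it was 6.92-fold above, at 61.8 against 8.92 CPM. PSMC6 (ENSSSCG00000005038) was highest in malathion replicate 1, at 3.63, 2.58 and 0 CPM in control and 4.22, 3.64 and 0.189 CPM in malathion libraries. PSMC3, at 37.9 to 55.4 CPM in the replicate 1 and 2 libraries, was at or below 0.204 CPM in the replicate 3 libraries.

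The non-ATPase genes differ in role. PSMD5, PSMD9 and PSMD10 encode chaperones that help to build the base of the cap and leave before it is finished, and the other 10 encode parts of the finished cap. The 10 parts summed to 969, 1970 and 122 CPM in control and 900, 1015 and 158 CPM in malathion libraries. The 3 chaperones summed to 390, 159 and 390 CPM in control and 370, 599 and 45.1 CPM in malathion libraries. Control replicate 2 was thus the highest library for the parts and the second lowest for the chaperones. Control replicate 3 was the lowest for the parts and level with control replicate 1 for the chaperones. The chaperone sum mainly followed PSMD5, which held 365 of the 390 CPM in control replicate 3. PSMD9 and PSMD10 were low there, at 17.6 and 7.36 CPM. PSMD5 also made most of the drop in control replicate 2, at 37.7 against 251 CPM in control replicate 1. Among the parts, PSMD1, PSMD3, PSMD8 and PSMD11 were lower in control replicate 2 than in control replicate 1, and the other parts were higher.

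Of the chaperones, PSMD5 (ENSSSCG00000005507) stood at 251, 37.7 and 365 CPM in control and 236, 431 and 22.5 CPM in malathion libraries. It was low in control replicate 2 and malathion replicate 3. PSMD10 (ENSSSCG00000033180), also known as gankyrin, stood at 45.1, 31.2 and 7.36 CPM in control and 59.0, 62.8 and 3.36 CPM in malathion libraries. PSMD9 stood at 74.6 to 105 CPM in the replicate 1 and 2 libraries and at 17.6 and 19.3 CPM in the replicate 3 libraries.

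Of the parts of the finished cap, PSMD13 (ENSSSCG00000014559), a lid subunit, differed most in control replicate 2. It stood at 58.2, 589 and 1.26 CPM in control and 74.0, 77.7 and 0.567 CPM in malathion libraries, so control replicate 2 was 10.1-fold above control replicate 1. PSMD12 (ENSSSCG00000017273), another lid subunit, stood at 103, 478 and 19.7 CPM in control and 90.1, 162 and 21.7 CPM in malathion libraries. PSMD4 (ENSSSCG00000006628), a ubiquitin receptor of the cap, stood at 53.7, 98.6 and 0.238 CPM in control and 41.6, 35.2 and 0.118 CPM in malathion libraries. Each of these 3 genes was highest in control replicate 2. PSMD14 (ENSSSCG00000015892), the subunit that cuts ubiquitin chains off the substrate, stood at 34.04, 146 and 65.5 CPM in control and 39.9, 62.6 and 84.9 CPM in malathion libraries. Like PSMB7, it was not low in the replicate 3 libraries. PSMD3 (ENSSSCG00000017489), a lid subunit, stood at 18.2, 13.6 and 0.339 CPM in control and 10.3, 19.4 and 5.25 CPM in malathion libraries. PSMD1, PSMD6, PSMD7, PSMD8 and PSMD11 stood at 19.0 to 280 CPM in the replicate 1 and 2 libraries and at 0.0339 to 31.8 CPM in the replicate 3 libraries.

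The activators fell into an immune pair near 0 and 2 genes with many counts. PSME1 (ENSSSCG00000002006) and PSME2 (ENSSSCG00000002004), which interferon induces, had 5 and 3 counts over all 6 libraries. PSME3 (ENSSSCG00000017385), which forms the nuclear activator, stood at 35.6, 65.4 and 4.21 CPM in control and 34.2, 39.4 and 2.13 CPM in malathion libraries. PSME4 (ENSSSCG00000008412), a single large protein that caps the core in the nucleus, stood at 30.3, 17.6 and 316 CPM in control and 29.3, 30.5 and 131 CPM in malathion libraries. The replicate 3 libraries were the 2 highest for PSME4 and the 2 lowest for PSME3.

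No subunit gene passed the test of malathion against control. The comparison used edgeR's quasi-likelihood test on the deposited counts, scaled to library totals, with Benjamini-Hochberg adjustment over the 10678 genes that passed a filter on low counts. Of the 39 members 34 passed that filter, and PSMB8, PSMB9, PSMB11, PSME1 and PSME2 did not. At an adjusted p of 0.05, 0 of the 34 were called, against 0% of all genes tested (smallest adjusted p 0.99998 in both). At an unadjusted p under 0.05, 0 of the 34 were higher and 0 lower, against 0.328% and 0.702% of all genes (smallest member p 0.275). DESeq2 and limma-voom called 0 members as well, with 0 members each at an unadjusted p under 0.05. DESeq2 gave 5 of the 34 members no adjusted p, PSMA5, PSMB2 and PSME4 among them, so only the other 29 could be called there. The CPM of the 2 groups overlapped for each of the 34, where malathion lay wholly above control for 0.243% and wholly below for 0.506% of all genes.

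The fitted log2 fold changes, malathion minus control, were positive for 18 members and negative for 16, where 66.3% of all genes had a negative value. Their median was 0.02 against −0.33 for all genes tested. By class, 6 of 7 alpha ring, 4 of 6 beta ring, 2 of 6 ATPase, 6 of 13 non-ATPase and 0 of 2 activator genes had a positive value, with medians of 0.24, 0.57, −0.28, −0.01 and −0.70. On summed CPM per class, the difference of mean log2 values was −0.58, 1.29, 0.28, −0.61 and −0.52 in the same order. Each had a p of at least 0.4 (exact two-sided permutation test). For the alpha ring and the ATPases the sums thus had the opposite sign to the medians. The split of members by sign changed with single libraries. Without control replicate 2, 30 members were positive and 4 negative (median 0.52, and 0.41 for all genes). Without control replicate 3 the split was 9 to 25 (median −0.46, all genes −0.83), without malathion replicate 1 it was 8 to 26 (−0.32, all genes −0.59), without malathion replicate 2 it was 10 to 24 (−0.44, all genes −0.85), and without malathion replicate 3 it was 24 to 10 (0.50, all genes 0.11). Without control replicate 1 the split was 19 to 15 (0.26, all genes −0.28).

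**Figure D3:**
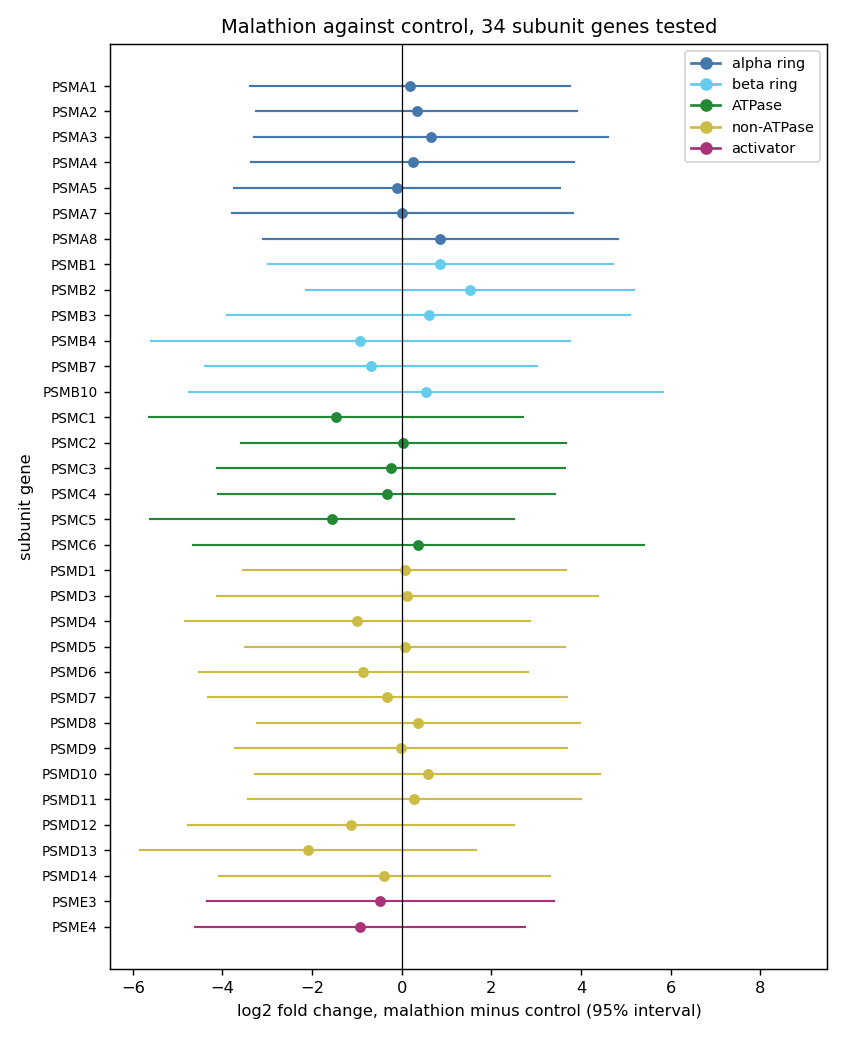
Fitted log2 fold change of each of the 34 tested subunit genes, malathion minus control (points), with its 95% interval (lines), coloured by class. Each interval spans 0, and the half-widths run from 3.56 to 5.29.

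In each class the member with the smallest p in each direction was read from the same edgeR fit, none with an adjusted p below 0.99998. In the alpha ring the log2 fold changes were 0.86 ± 2.02 (SE) for PSMA8 and −0.10 ± 1.86 for PSMA5, and in the beta ring 1.53 ± 1.86 for PSMB2 and −0.92 ± 2.39 for PSMB4. Among ATPases they were 0.37 ± 2.57 for PSMC6 and −1.55 ± 2.07 for PSMC5, and among non-ATPase genes 0.58 ± 1.96 for PSMD10 and −2.09 ± 1.92 for PSMD13. PSME4 had −0.93 ± 1.88, and no tested activator had a positive value. The 95% interval of a member had a median half-width of 3.76 on the log2 scale, against 4.36 for all genes. These intervals are not adjusted for the number of genes tested. Fitted values over all genes ran from −9.13 to 9.35 with none called, so even changes larger than these half-widths could go undetected here. The values of PSMB4, PSMC5 and PSMD13 turned to 0.74, 0.68 and 0.77 without control replicate 2, and those of PSMA5 and PSME4 to 0.28 and 1.41 without control replicate 3. PSMB2 stood at 0.53 without malathion replicate 3, and PSMC6 turned to −0.21 without control replicate 3 and −0.12 without malathion replicate 1. Scaling by TMM factors instead, which were 0.141 and 0.138 in control and malathion replicate 3 and at least 2.255 elsewhere, moved PSMB2 to 5.21 (adjusted p = 0.99978 by edgeR, unadjusted p = 0.0347) and PSMA5 to −2.68. The same scaling moved the median of all genes from −0.33 to −0.08 and that of the members from 0.02 to 0.25.

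Single pairs of libraries with the same replicate number showed how uneven the replicates were. In replicates 1 the log2 ratios of CPM plus 1, malathion over control, had a median of 0.04 and an SD of 0.37 over the 34 members, against −0.08 and 0.50 over all genes. There 1 member passed a 2-fold difference, PSMB10 with its 13 and 58 counts, against 5.95% of all genes. The ATPase ratios of that pair lay between −0.06 and 0.45 and the alpha ring ratios between −0.26 and 0.60. In replicates 2, 16 of 34 members passed 2-fold, against 39.2% of all genes. All 7 alpha ring ratios were above 0 there (0.39 to 1.5), where 3896 of all 10678 genes had a ratio above 0. Of the 6 ATPase ratios 5 were below 0 (down to −2.18 for PSMC5), as were those of 6782 of all genes. In replicates 3, 10 of 34 passed 2-fold, against 17.9% of all genes, from −3.98 for PSMA5 and −3.96 for PSMD5 to 7.53 for PSMB2.

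Between 2 control libraries the alpha ring genes also went against most genes, while most ATPases went with them. On the scale of CPM plus 1, with control replicate 2 set against control replicate 1, 9 of 34 members were over 2-fold higher and 4 over 2-fold lower, against 34.1% and 8.33% of all genes. The 9 were PSMB4, PSMB7, PSMC1, PSMC5, PSMD6, PSMD7, PSMD12, PSMD13 and PSMD14, and the 4 were PSMA5, PSMB3, PSMD5 and PSMD8. PSMB10, with 13 and 43 counts, was 3.39-fold higher on CPM without the added 1. All 7 alpha ring genes had a negative log2 ratio (median −0.72), and 5 of the 6 ATPases a positive one (median 0.65). Of all 10678 genes tested, 7160 had a positive ratio and 3518 a negative one (median 0.49). With 1 library on each side there is no replicate check of these ratios, and the 2 comparisons share control replicate 2.

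**Figure D4:**
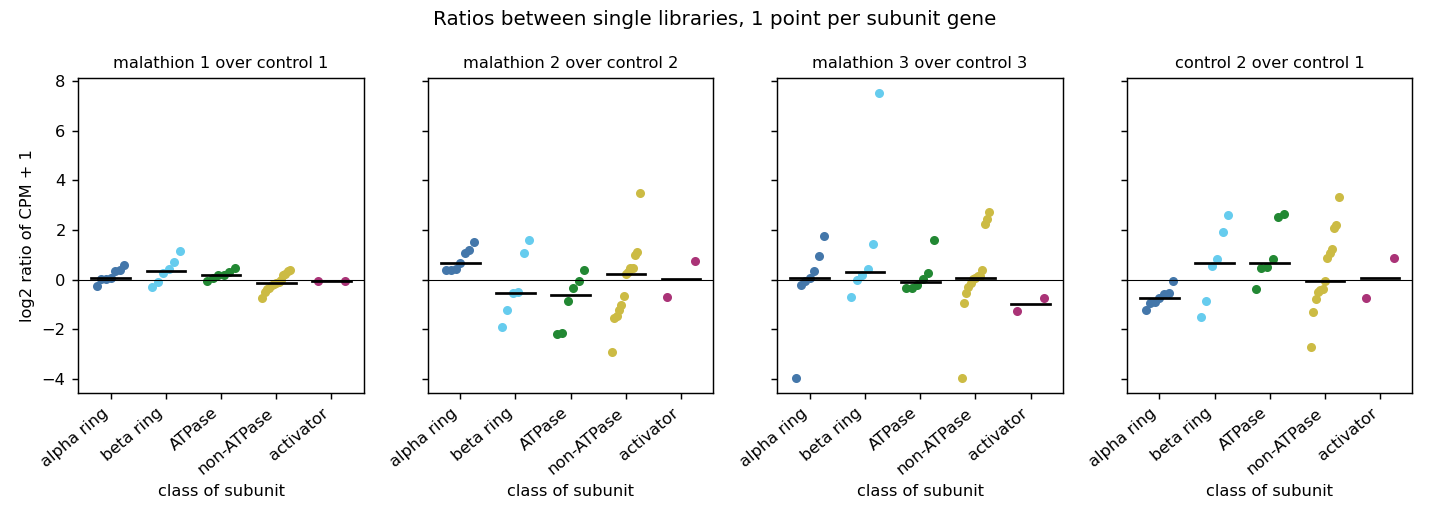
Log2 ratio of CPM plus 1 between single libraries for each tested subunit gene (points) by class, with the class median (black bar), for the 3 same-numbered pairs and for control replicate 2 over control replicate 1. Points of replicates 1 lie close to 0, and the alpha ring and the ATPases lie on opposite sides of 0 in the panels that hold control replicate 2, with PSMC6 as the ATPase that departs.

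Low levels in the replicate 3 libraries were counted for the members and for all genes. Of the 34 tested members, 17 lay below 1 CPM in control replicate 3 and 15 in malathion replicate 3, or 50.0% and 44.1%, against 65.0% and 65.1% of all genes tested. Below 10 CPM in both were 23 members (67.6%), against 82.8% of all genes. In each of the other 4 libraries 3 or 4 of the 34 members lay below 10 CPM. Of all 10678 genes tested, 5343 and 3974 lay below 10 CPM in control replicates 1 and 2. In malathion replicates 1 and 2, 5442 and 5064 did. Members were thus less often low than all genes in those libraries too, so the shares do not compare the drop in replicate 3. All 6 ATPases were among the members below 10 CPM in control replicate 3. Across the 34 members, log2 (CPM + 1) of control replicate 1 correlated at r = 0.980 with malathion replicate 1, at 0.983 with malathion replicate 2 and at 0.714 with control replicate 2. The r between both replicate 3 libraries was 0.705, and 0.203 to 0.476 between either of them and the rest. Such values across genes, which are no independent replicates, only describe the libraries.

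None of the tested genes that work with the proteasome passed the test either. Of a list of 41 assembly factors, bound enzymes, ubiquitin shuttles, regulators and ubiquitin genes, 34 were matched and 29 tested. No gene was called (0 of 29 at an adjusted p of 0.05, and 0 in either direction at an unadjusted p under 0.05, by edgeR), 10 had positive and 19 negative values, and the median log2 fold change was −0.42 against −0.33 for all genes. RAD23B (ENSSSCG00000005436), a shuttle that carries tagged proteins to the proteasome, stood at 30.0, 160 and 16.7 CPM in control and 11.6, 25.7 and 14.3 CPM in malathion libraries (log2 fold change −1.997 ± 2.001, SE, and −0.44 without control replicate 2). PSMF1 (ENSSSCG00000038854), a regulator first known as a core inhibitor, stood at 4.75, 48.3 and 0 CPM in control and 4.42, 7.42 and 0.189 CPM in malathion libraries (−2.14 ± 2.27, and 0.75 without control replicate 2). Both were highest in control replicate 2, as were 17 of the 29 tested partner genes (58.6%) and 54.7% of all genes tested. UBB (ENSSSCG00000018033), a polyubiquitin gene, stood at 4047, 3117 and 44.3 CPM in control and 4276, 3541 and 6460 CPM in malathion libraries (0.99 ± 1.81, and 0.70 without malathion replicate 3). UFD1 (ENSSSCG00000010121), a cofactor of the unfolding ATPase VCP, stood at 258, 581 and 8.99 CPM in control and 205, 288 and 1129 CPM in malathion libraries (0.94 ± 1.82, and −0.20 without malathion replicate 3). These 2 genes were highest in malathion replicate 3 and lowest in control replicate 3, as was PSMB2.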

How the data were processed

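The 6 libraries, 3 control and 3 malathion, each had 1 file of whole-number read counts per Ensembl gene, deposited by the authors without normalization. Per the labels' protocols, cDNA came from Smart-seq2, which has no molecular identifiers, and libraries from a TruSeq DNA kit. The submitters' processing notes name STAR 2.5.3a, HTSeq 0.9.1 and DESeq2 1.20.0. Roles, genome build, annotation and strandedness are not given in the sources used here, so no coordinates are printed. The 5 closing rows of reads given to no gene (36.7% to 42.6% of a file) were left out. Reads with more than 1 placement were 2.45% to 8.37%, so members with near-identical copies are uncertain. Symbols were found for 14857 of 25880 identifiers.

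CPM used the sum of gene rows. The groups were tested with edgeR 4.0.16 in R 4.3.3 (quasi-likelihood F test, two-sided, no replicate block, filterByExpr with minimum count 10 and minimum total 15, threshold 0.05). Library totals took the place of TMM factors so that fold changes follow from the printed CPM. Standard errors derive from the F statistic. Sums per library had exact permutation tests. Alternatives were other scalings, filters and tools (DESeq2 1.42.0, limma-voom of limma 3.58.1), the replicate block and leaving out libraries. Same-numbered libraries deviated together from their group means (r = 0.588, 0.382 and 0.652 across genes for replicates 1, 2 and 3). Control replicate 1 with malathion replicate 2 (0.556) and control replicate 2 with malathion replicate 1 (0.290) came close, so the values mainly part replicates 3 from the rest, and the labels give the numbers no meaning.

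The rule for named genes took, per class, the 2 members with the highest mean CPM, the 1 with the lowest above 0, the smallest p on either side, and fixed catalytic, receptor, tissue-specific and activator genes, plus 2 partner genes by p on either side. Fold changes are printed for those named by p. PSMC1, PSMD9 and members given by ranges were added after their values were seen. Members and lists were chosen with earlier results of these data known.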

Additional observations from a re-analysis of the deposited data

How the results depend on the processing

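No alternative called a subunit gene, and none called any gene, with 3 to 413 genes at an unadjusted p under 0.05. In DESeq2 only 9559 of the 10678 genes tested had an adjusted p and could be called. In edgeR, TMM factors and DESeq2 size factors each left 1 member at an unadjusted p under 0.05, against 383 and 413 of all genes. The median log2 fold change of the members was 0.25 with TMM factors, 0.20 with DESeq2 size factors in edgeR and in DESeq2, −0.036 with limma-voom, −0.012 with no filter on low counts and −0.00021 without both replicate 3 libraries. It ranged from −0.46 to 0.52 when 1 library was left out. With the replicate number as a block it was 0.10, and 0.28 with the block and TMM factors, and the block changed no call. Leaving out control replicate 2 and both replicate 3 libraries, chosen after seeing the data, gave 0.19, with the lone control library assumed to vary like the others. The difference in summed CPM was 0.12 with TMM factors, 0.062 with DESeq2 size factors, 0.11 without those 3 libraries and −0.63 to 0.51 when 1 library was left out. The sign of 6 of 34 members turned with TMM factors, of 14 without control replicate 2 and of 13 without control replicate 3. PSMA3 and PSMB1 stayed positive and PSMD4 negative under all 16 alternatives. How many of all genes kept or turned their sign was not counted. The share of all genes with a positive value ran from 14.3% without control replicate 3 to 79.0% without control replicate 2. PSMD10 turned to −0.11 with TMM factors, −0.23 with DESeq2 size factors or DESeq2 and −0.0060 with limma-voom, where PSMA8 stood at −0.56 and PSMF1 at 0.18. Without both replicate 3 libraries PSMA5 stood at 0.83, PSMB2 at −0.046, PSME4 at 0.32 and UFD1 at −0.77. Without control replicate 2 as well, PSMA5 stood at 0.33, PSMB4 at 0.61, PSMC5 at 0.29, PSMD13 at 0.38, PSMF1 at 0.32, UBB at −0.050 and UFD1 at −0.062. In that setting PSMB2 and PSME4 turned back, to 0.26 and −0.022. Leaving out 1 library gave −0.53 to 0.44 for PSMA5, 0.53 to 2.23 for PSMB2, −1.61 to 0.74 for PSMB4, −2.13 to 0.68 for PSMC5, −0.21 to 1.05 for PSMC6, −2.67 to 0.77 for PSMD13, −2.02 to 1.41 for PSME4, −2.94 to 0.75 for PSMF1, −2.46 to −0.44 for RAD23B and −0.20 to 2.02 for UFD1. RAD23B stood at −0.57 with TMM factors and −0.60 with DESeq2 size factors. The causes of these turns were not tested beyond the libraries left out. Levels per kb of coding sequence were not run, since no coding lengths were used here.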

Other observations

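Other genes followed the same order of libraries as the summed subunit transcripts. Among 4695 named genes with a mean of at least 10 CPM, 249 (5.30%) had a Spearman correlation of 1 with the sum over the 6 libraries. The 5 with the highest Pearson correlation among them, on log2 (CPM + 1), were SNAPIN, BMAL2, TEX30, BRIX1 and PDE3A. BRIX1, a ribosome assembly factor, stood at 287, 925 and 4.04 CPM in control and 339, 531 and 3.47 CPM in malathion libraries. PDE3A, the phosphodiesterase that breaks down cyclic AMP in oocytes, stood at 20.4, 38.9 and 0.339 CPM in control and 21.1, 25.9 and 0.189 CPM in malathion libraries. These genes were picked for their likeness and share the depth and the gap of the replicate 3 libraries with the sum, so no p is given.

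AKIRIN2 (ENSSSCG00000004307), which carries proteasomes into the nucleus, stood at 8223, 4843 and 172 CPM in control and 5707, 7618 and 843 CPM in malathion libraries. NGLY1 (ENSSSCG00000011214), the enzyme that activates the transcription factor of proteasome genes, stood at 1714, 538 and 9.06 CPM in control and 1475, 1536 and 12.3 CPM in malathion libraries. UCHL5 (ENSSSCG00000010802), a deubiquitinase bound to the cap, stood at 32.2, 18.3 and 179 CPM in control and 32.2, 30.4 and 5.18 CPM in malathion libraries, highest in control replicate 3. These 3 genes were chosen after their values were seen.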
